A study of Mus musculus with 18 samples.

Results

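Insulin-like growth factors are small peptide hormones that act on most tissues and that fibroblasts both make and answer to. Igf1 and Igf2 are the ligands. Igf1r encodes the receptor tyrosine kinase that carries their growth and survival signal, and Igf2r encodes the mannose 6-phosphate receptor, which takes up and degrades IGF2. Most circulating and tissue ligand is held by a family of secreted binding proteins, the products of the Igfbp genes, which prolong its life, keep it from the receptor or deliver it, and which proteases cut to release it. Fibroblasts of the skin and connective tissue are a known source of IGF1 and of several binding proteins.

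The 10 genes followed here were Igf1, Igf2, Igf1r, Igf2r, Igfbp2, Igfbp3, Igfbp4, Igfbp5, Igfbp6 and Igfbp7, taken by name out of 24445 gene symbols with an expression value, with 1 transcript per symbol. All 10 passed the filter on low values (at least 1 FPKM in at least 2 libraries), and so were among the 12599 genes tested. A gene is said below to have passed a test where the p from limma, which fits a linear model to each gene with a variance shared across genes, was under 0.05 after Benjamini-Hochberg adjustment over all of these genes. FPKM is the number of fragments per kilobase of transcript, scaled to the mapped depth of the library. RNA came from cultured primary tail-tip fibroblasts of mice 2 months old, harvested at passage 5. The genotypes, called homozygous, heterozygous and wild-type below, were Pro/Pro;Cas9/+ (homozygous for Pro, an Lmna allele that models progeria, a premature ageing disorder, with a Cas9 transgene on one chromosome), Pro/+; +/+ (heterozygous for Pro, without Cas9) and +/+;Cas9/+ (wild type at Lmna, with the Cas9 transgene). Cells of each mouse received lentivirus with an mCherry reporter and with gLmna-1 or gLmna-2, guide RNAs against Lmna, or gMock, a guide with no match in the genome. There were 2 mice per genotype, called replicate 1 and replicate 2 below, each giving 3 libraries, so 9 groups of 2 libraries, 18 in all. The treatment protocol gives an mCherry share of more than 80%. Cells were neither sorted nor selected, so untransduced cells remained, and the promoter that drives Cas9 is not given in the sources used here. The heterozygous cells differ from both other genotypes in the Cas9 transgene as well as in Lmna, and the 2 differences cannot be told apart. Replicate numbers name the mice within a genotype and link none across genotypes, and for 1 heterozygous mouse the name leaves unclear whether it stands for a single animal or a pool.

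Depth recovered from the table was 22424409 to 42622051 reads per library. Lmna, the targeted gene, averaged 256 ± 38.9 FPKM with the guides (SD, n = 4 libraries) and 308 ± 87.7 with gMock (n = 2) in homozygous cells, a log2 change of −0.25 (SE 0.15, limma adjusted p = 0.74). In heterozygous cells it averaged 237 ± 40.1 FPKM with the guides (n = 4) and 240 ± 4.54 with gMock (n = 2), a log2 change of −0.03 (SE 0.15, limma adjusted p = 1.00). In wild-type cells it averaged 299 ± 25.5 FPKM with the guides (n = 4) and 349 ± 45.3 with gMock (n = 2), a log2 change of −0.22 (SE 0.15, limma adjusted p = 0.76). All 10 fibroblast markers (Col1a1, Pdgfra, Dcn, Lum and others) were at 1 FPKM or more in all 18 libraries, with a summed level of 8648 to 12097 FPKM. Of 6 keratinocyte markers 5 were under 1 FPKM in every library, as were 4 of 5 endothelial markers. Transcripts of macrophages were present: 9 of 12 markers were at 1 FPKM or more in all libraries, and their summed level was 541 to 1769 FPKM in homozygous libraries, 84.1 to 689 in heterozygous libraries and 79.5 to 474 in wild-type libraries. In such bulk cultures, fewer cells of a type and less RNA per cell cannot be told apart.

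The genes lie on 7 chromosomes of the mouse genome (mm10, RefSeq gene extents). Igf1 is at chr10:87858265-87937047 on the plus strand, Igf2 at chr7:142650768-142666816 on the minus strand, Igf1r at chr7:67952257-68233668 and Igf2r at chr17:12682406-12769706. Igfbp2 (chr1:72824480-72852474, plus strand) and Igfbp5 (chr1:72858065-72874865, minus strand) are neighbours, with 5590 bases between their 3′ ends. Igfbp3 is at chr11:7206086-7215498, next to Igfbp1, Igfbp4 at chr11:99040005-99052655, Igfbp6 at chr15:102144186-102149512 and Igfbp7 at chr5:77349240-77408045. Igf2 overlaps the antisense transcript Igf2os, Igf2r overlaps Airn, Igf1 overlaps Igf1os, and the end of Igfbp7 overlaps the end of Polr2b. The counting strand is not stated, so reads of such pairs cannot be told apart. Igf2os was at most at 0.0274 FPKM and Airn at 0.362 to 1.47 FPKM.

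The sequences below belong to the 3 genes on which the results turn, Igf1, Igf2 and Igfbp5. Igf1 transcripts differ at their end by exon 5 (chr10:87915298-87915349, plus strand, coding), which is 52 bases long, is kept in the Eb form of the precursor and is skipped in the Ea form. Both forms are shown from the last 30 bases of exon 4 to the stop codon, from GENCODE transcripts, with exon 5 in capitals.
Igf1 Eb form: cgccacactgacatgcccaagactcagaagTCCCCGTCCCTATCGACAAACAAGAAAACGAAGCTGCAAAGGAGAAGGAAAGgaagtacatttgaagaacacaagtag
Igf1 Ea form: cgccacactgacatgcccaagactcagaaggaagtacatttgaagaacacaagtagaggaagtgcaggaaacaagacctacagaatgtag

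Exon 5 shifts the reading frame, so the first bases of exon 6 are read differently in the 2 forms. The Eb form stops after 26 bases of exon 6, and the Ea form stops after 60. The next 2 sequences are the 250 bases upstream of a transcript start, from RefSeq on GRCm38.p6, and are shown because these are the start of Igf2 that held nearly all leader reads and the start of Igfbp5. Capitals mark matches on either strand to 3 motifs, which are the TATA box letters TATAAA, the GC box letters GGGCGG and the CCAAT box, and no matches overlapped. The Igf2 window is chr7:142658805-142659054 and the Igfbp5 window is chr1:72874866-72875115, both on the minus strand.
Igf2 promoter: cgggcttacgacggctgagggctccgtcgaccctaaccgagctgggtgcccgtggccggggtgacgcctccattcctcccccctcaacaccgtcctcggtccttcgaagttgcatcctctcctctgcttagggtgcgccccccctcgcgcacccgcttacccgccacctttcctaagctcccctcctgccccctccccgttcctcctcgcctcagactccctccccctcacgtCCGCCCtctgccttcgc
Igfbp5 promoter: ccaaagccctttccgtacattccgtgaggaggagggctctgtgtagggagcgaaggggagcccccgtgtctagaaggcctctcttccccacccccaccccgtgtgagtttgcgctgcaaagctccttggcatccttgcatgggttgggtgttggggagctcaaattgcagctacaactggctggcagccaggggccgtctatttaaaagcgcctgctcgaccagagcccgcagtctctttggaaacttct

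The Igf2 window was 68.8% G and C with 22 CpG dinucleotides and 1 match to GGGCGG, and the Igfbp5 window was 58.8% G and C with 10 CpG dinucleotides and no match. Over the 32851 promoter windows of the same length, 32.7% held GGGCGG, 33.9% held CCAAT and 12.4% held TATAAA. Such matches describe the letters in the window alone.

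The binding proteins were the most abundant members. Igfbp4, a binding protein that mostly holds IGFs back from the receptor, had the highest mean, 751 ± 186 FPKM over the 18 libraries (SD), with a range of 386 to 1078 FPKM. Igfbp7, a distant family member of low affinity for IGFs, followed with 370 ± 102 FPKM, and Igfbp5, which binds extracellular matrix, with 294 ± 161 FPKM. Igfbp4 was above Igfbp7 in 16 of 18 libraries and Igfbp7 above Igfbp5 in 14 of 18. Igfbp3, the main carrier of IGFs in blood, averaged 84.8 ± 32.8 FPKM, Igfbp2 averaged 58.5 ± 34.8 FPKM, and Igfbp6, which prefers IGF2, averaged 45.6 ± 16.8 FPKM. Igfbp2 and Igfbp6 exchanged places, with Igfbp2 above Igfbp6 in 10 of 18 libraries. Igf2r averaged 27.7 ± 4.64 FPKM and was above Igf1r, at 13.8 ± 1.22 FPKM, in all 18 libraries. Igf1r was above Igf1, at 10.1 ± 5.14 FPKM, in 12 of 18 libraries, and Igf2 was last at 1.22 ± 0.727 FPKM, from 53 to 355 reads per library. Igfbp1, the gene beside Igfbp3 that liver expresses, was listed at 0 FPKM in every library.

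**Figure D1:**
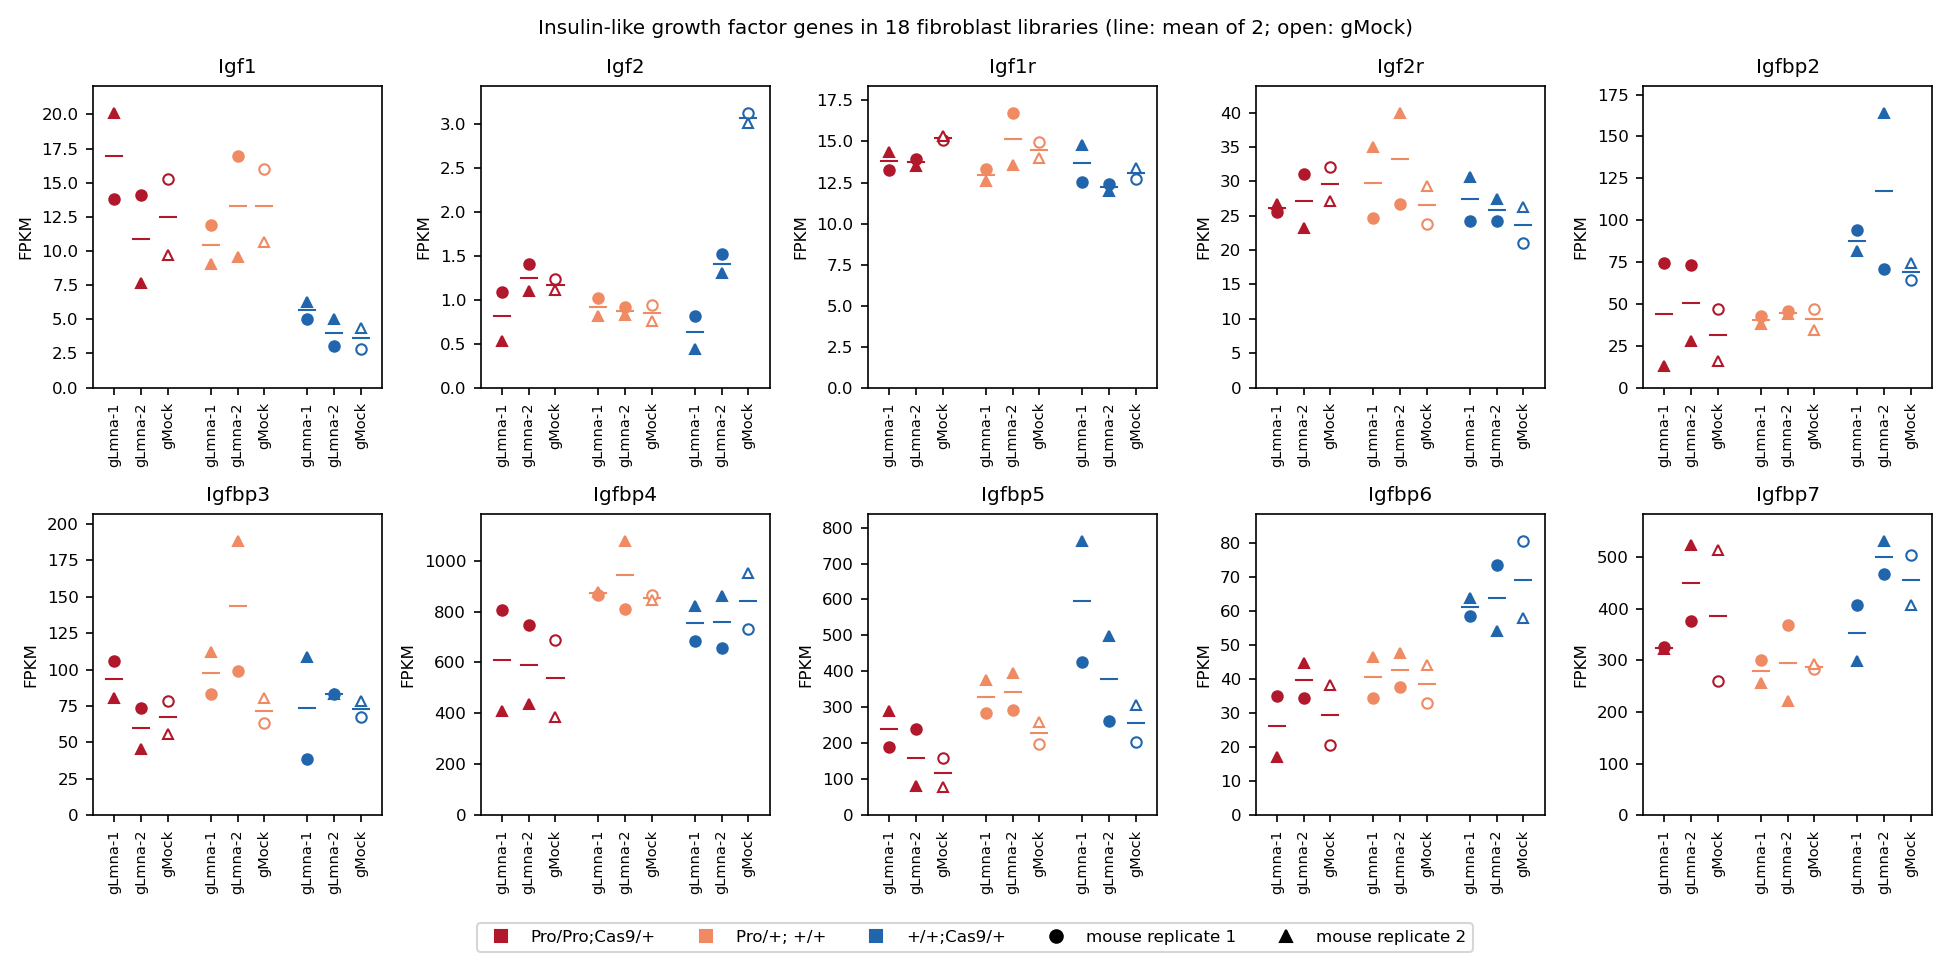
FPKM of each of the 10 genes (vertical axis, from 0) in the 9 groups (horizontal axis, guide within genotype); circles and triangles are the libraries of replicate 1 and replicate 2, lines are means of 2 libraries, and open symbols are gMock. The 12 libraries of both Pro genotypes lie between 7.68 and 20.1 FPKM for Igf1, above all 6 of +/+;Cas9/+, and the 2 gMock libraries of +/+;Cas9/+ are the highest for Igf2.

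The ligand Igf2 was the one member that passed a test, and it did so in wild-type cells. In wild-type cells Igf2 was at 0.815 and 0.442 FPKM with gLmna-1 and at 1.52 and 1.30 FPKM with gLmna-2 (replicates 1 and 2), against 3.12 and 3.01 FPKM with gMock. All 4 guide libraries were below both gMock libraries. The log2 change with both guides was −1.04 (SE 0.11, limma adjusted p = 0.0042), on the scale of log2(FPKM + 1), which understates the change of so low a gene. Igf2 ranked 11 by p of all genes tested, and it was 1 of 10 members called, where 0.849% of all genes were called and 0.825% were called lower. At an unadjusted p under 0.05 there were 2 of 10 members, Igf2 and Igfbp5, beside 7.61% of all genes. Among all genes, 17.7% were lower in 4 of 4 guide libraries of this genotype. Macrophage markers moved the other way in this comparison: 11 of 12 were higher with the guides (median log2 change 0.70, 4 with an unadjusted p under 0.05, 0 passed), and their summed level was 474 and 188 FPKM with gLmna-1 and 446 and 247 FPKM with gLmna-2, against 281 and 79.5 FPKM with gMock. Of 10 fibroblast markers 9 were higher (median log2 change 0.24, 0 passed). The part of these markers in the Igf2 result was not tested. With gLmna-2 Igf2 was higher than with gLmna-1 in both of these mice, but the difference, 0.57 (SE 0.13), did not pass (limma adjusted p = 0.33).

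The call rested on both gMock libraries of that genotype. Without gMock of replicate 1 the log2 change was −1.14 (limma adjusted p = 0.072), and without gMock of replicate 2 it was −0.94 (limma adjusted p = 0.099). Over 13 alternatives the adjusted p ran from 0.0020 to 0.099, and 11 passed. In homozygous cells Igf2 was at 1.09 and 0.533 FPKM with gLmna-1 and at 1.41 and 1.096 FPKM with gLmna-2, against 1.23 and 1.11 FPKM with gMock. The groups overlapped there, and the log2 change was −0.11 (SE 0.11, limma adjusted p = 0.86). In heterozygous cells, which have no Cas9, all 6 libraries lay between 0.757 and 1.01 FPKM, and the log2 change was 0.03 (SE 0.11, limma adjusted p = 0.997). The difference of the guide effect between homozygous cells and wild-type cells was 0.93 (SE 0.16) and missed the threshold (limma adjusted p = 0.10). There 0.0476% of all genes passed and no member did. At an unadjusted p under 0.05 there were 2 of 10 members, Igf2 and Igf2r, beside 3.03% of all genes.

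Under gMock alone Igf2 was lower in both Pro genotypes, at 1.23 and 1.11 FPKM in homozygous cells and 0.937 and 0.757 FPKM in heterozygous cells, against the same 3.12 and 3.01 FPKM in wild-type cells. The log2 changes were −0.91 (SE 0.15, limma adjusted p = 0.10) for homozygous cells and −1.14 (SE 0.15, limma adjusted p = 0.066) for heterozygous cells. Neither passed, and both share with the guide comparison the same pair of wild-type gMock libraries, so these differences are not separate evidence. With voom on recovered reads the change for heterozygous cells was −1.85 and passed (adjusted p = 0.042). With the 3 libraries of each mouse averaged, the changes were −0.29 for homozygous cells (limma adjusted p = 0.42) and −0.42 for heterozygous cells (limma adjusted p = 0.16).

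Reads over Igf2 fell mostly on its untranslated end, with 2068 reads over the 18 libraries on the long end of the last exon and 135, 55 and 80 on the coding parts. Over the coding parts alone, wild-type cells had 0.882 and 0.444 FPKM with gLmna-1 and 1.03 and 1.56 FPKM with gLmna-2, against 2.86 and 2.60 FPKM with gMock. The order of the groups was therefore the same where only coding bases were counted, from 8 to 46 reads per library. Mouse Igf2 starts at several promoters. Of the leader exons, the one that begins at chr7:142658804, downstream of the Igf2 sequence shown above, held 54 reads over all libraries, the one that begins at chr7:142661271 held 1, and those at chr7:142666816 and chr7:142657496 held 0.

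The genes whose pattern over the 18 libraries was most like that of Igf2, by Pearson correlation of log2(FPKM + 1), were Ifi35 (r = 0.88), Bst2 (r = 0.86) and Ddx24 (r = 0.85). The libraries come from 6 mice, so these values describe likeness only. Ifi35 and Bst2 are interferon-induced genes, and Bst2 encodes tetherin, which holds enveloped virus at the cell surface. In wild-type cells Bst2 was at 32.4 and 45.6 FPKM with gLmna-1 and 63.4 and 51.2 FPKM with gLmna-2, against 234 and 239 FPKM with gMock. It fell with the guides, with a log2 change of −2.31 (SE 0.21, limma adjusted p = 0.0031). Ifi35 in the same cells was at 16.4 and 17.9 FPKM with gLmna-1 and 21.1 and 16.9 FPKM with gLmna-2, against 38.8 and 36.7 FPKM with gMock, and fell too (log2 change −1.03, SE 0.11, limma adjusted p = 0.0042). The 2 gMock libraries in which Igf2 was high were also the highest of all 18 for both of these genes. Both genes were picked for their likeness to Igf2 over these same libraries. Their falls and p-values are therefore descriptions and not separate evidence. The part of both genes in the Igf2 result was not tested.

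**Figure D2:**
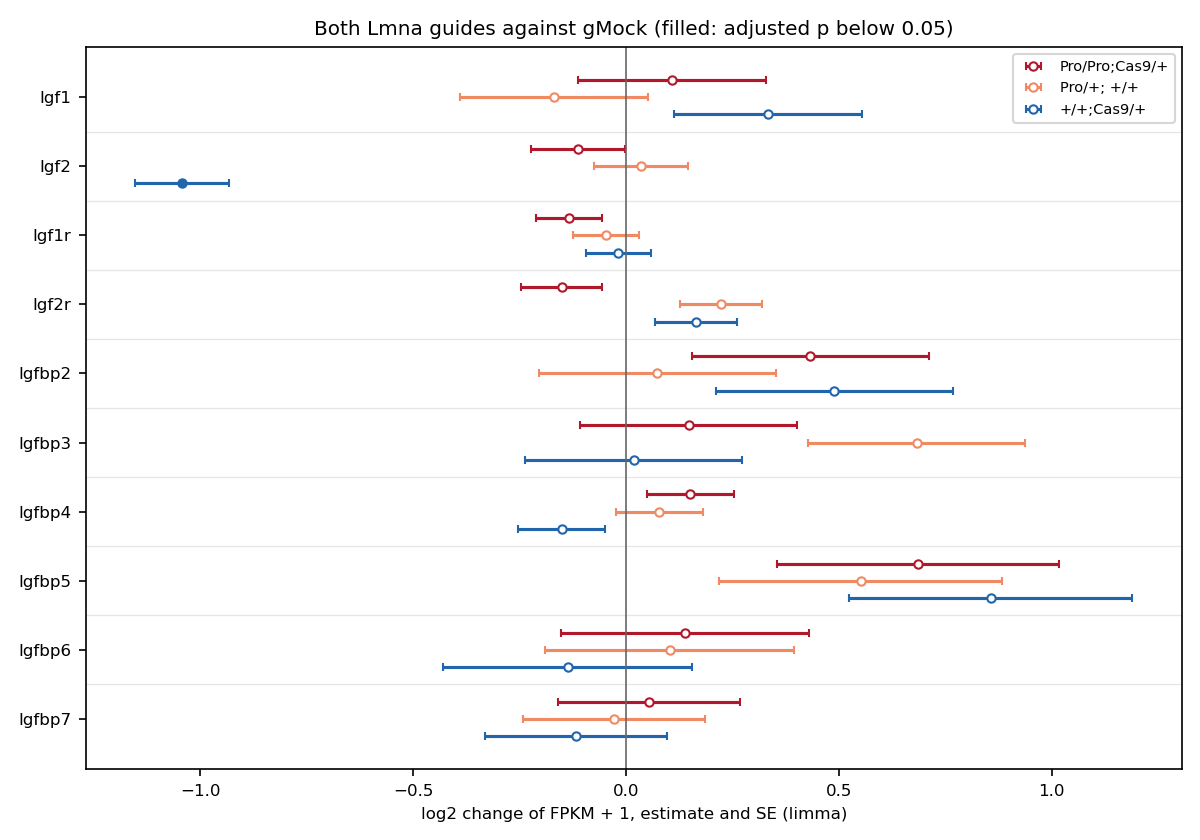
Log2 change of FPKM + 1 with both Lmna guides against gMock (horizontal axis, estimate and SE from limma) for the 10 genes (vertical axis) in the 3 genotypes; filled points have an adjusted p below 0.05. Igf2 in +/+;Cas9/+ cells, at −1.04, is the one filled point, and the 3 estimates of Igfbp5 are 0.69, 0.55 and 0.86.

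The ligand Igf1 was higher in every library of both Pro genotypes than in any wild-type library. In homozygous cells Igf1 was at 13.8 and 20.1 FPKM with gLmna-1, 14.1 and 7.68 FPKM with gLmna-2 and 15.3 and 9.71 FPKM with gMock (replicates 1 and 2). In heterozygous cells it was at 11.9 and 9.02 FPKM with gLmna-1, 16.9 and 9.60 FPKM with gLmna-2 and 16.0 and 10.7 FPKM with gMock. In wild-type cells it was at 5.04 and 6.26 FPKM with gLmna-1, 3.07 and 5.00 FPKM with gLmna-2 and 2.83 and 4.39 FPKM with gMock. The 12 libraries of both Pro genotypes were all above the 6 of wild-type cells. Igf1 was the 1 member of 10 that did not overlap in this direction, against 1.17% of all genes, and Igfbp6 was the 1 member below without overlap, against 2.11%.

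Tested in the gMock libraries, Igf1 was 1.54 higher on the log2 scale in homozygous cells than in wild-type cells (SE 0.30, limma adjusted p = 0.14) and 1.63 higher in heterozygous cells (SE 0.30, limma adjusted p = 0.13). Neither passed. Between homozygous cells and heterozygous cells the difference was −0.09 (SE 0.30, limma adjusted p = 0.99). No member passed in the 3 genotype comparisons, in which 0.397% of all genes passed for homozygous cells against wild-type cells, 0.413% for heterozygous cells against wild-type cells and 0% for homozygous cells against heterozygous cells. At an unadjusted p under 0.05 the counts were 5 of 10 members beside 10.4% of all genes, 3 beside 12.5% and 1 beside 4.34%, in the same order. With the 3 libraries of each mouse averaged, the changes of Igf1 were 1.39 (limma adjusted p = 0.080) and 1.30 (limma adjusted p = 0.071). Over the 6 mice, the 4 with a Pro allele averaged 1.34 more on the log2 scale than the other 2 (exact permutation test, two-sided p = 0.0667, the smallest that the 15 splits can give). Igf2 and Igfbp6, both lower in the mice with a Pro allele, gave the same p of 0.0667, and no other member did. This pooling of both Pro genotypes was added after the values were seen, with the lack of overlap of Igf1 already known, so this p is a description.

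The macrophage markers varied in the same libraries. Their summed level reached its highest values in homozygous cells. In homozygous cells and wild-type cells the order of the libraries differed between this sum and Igf1. In heterozygous cells all 3 libraries of replicate 1 were above those of replicate 2 in both. Under gMock 12 of 12 macrophage markers were higher in homozygous cells than in wild-type cells, and 0 passed. Their median log2 change was 2.02, beside 0.00 over all genes. At an unadjusted p under 0.05 there were 11 of 12, beside 10.4% of all genes. In heterozygous cells against wild-type cells 11 of 12 were higher, with a median of 0.22. There 0 had an unadjusted p under 0.05, beside 12.5% of all genes. Cartilage and bone markers, of which 3 of 6 were at 1 FPKM or more in every library, summed to 25.3 to 434 FPKM in homozygous cells, 44.8 to 166 in heterozygous cells and 16.9 to 73.6 in wild-type cells. Adipocyte markers, of which 4 of 6 including Adipoq, Lep and Plin1 were under 1 FPKM in every library, summed to 34.9 to 63.4 FPKM in homozygous cells and 34.6 to 54.4 in heterozygous libraries, against 20.6 to 31.5 in wild-type libraries, so that sum, mostly Fabp4, also did not overlap. Skeletal muscle markers, of which 4 of 6 were under 1 FPKM throughout, summed to 8.69 to 41.9 FPKM in homozygous cells, 7.28 to 11.7 in heterozygous cells and 18.3 to 66.3 in wild-type libraries. Under gMock, 5 of 10 fibroblast markers were higher in homozygous cells than in wild-type cells. In that comparison 2 of the 10 passed as lower, beside 0.397% of all genes that passed. In heterozygous cells against wild-type cells 6 of 10 were higher and 0 passed. Of 2 tested skeletal muscle markers 1 passed there as lower, beside 0.413% of all genes. The part of all these markers in the Igf1 and Igfbp6 differences was not tested. The genes most like Igf1 over the 18 libraries were Rgl3, Itga11 and Cbr2 (Pearson r = 0.97 for each). Itga11 encodes a collagen receptor subunit of fibroblasts. None of them passed in the genotype comparisons. Itga11 was 1.44 higher in homozygous cells than in wild-type cells (SE 0.34, limma adjusted p = 0.20), and Cbr2 was 2.13 higher (SE 0.55, limma adjusted p = 0.24).

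The Igf1 value of a library is set mainly by its long untranslated end, and coding exons were higher per length. The coding bases of exon 1 had a median of 70.1 FPKM in homozygous cells, 59.2 in heterozygous cells and 20.1 in wild-type libraries, and exon 3 had medians of 75.5, 55.1 and 23.5 FPKM in the same order. Exon 4, which with exon 3 encodes mature IGF1, had a median of 58.7 FPKM in homozygous cells, 46.7 in heterozygous cells and 19.4 in wild-type libraries. The untranslated end in exon 6 had a median of 10.3, 8.42 and 3.45 FPKM in the same order of genotypes. Exon 4 ranged from 41.2 to 84.6 FPKM in homozygous cells and from 31.4 to 69.9 FPKM in heterozygous cells, against 13.8 to 26.3 FPKM in wild-type cells. This exon did not overlap either, but its reads are part of the Igf1 value, so it is not separate evidence. Transcripts began mostly at exon 1: the untranslated bases of the exon 2 leader, which liver uses more, made 0% to 21.4% of the summed FPKM of both leaders, with a median of 7.10%, from 0 to 15 reads.

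Exon 5, printed in capitals above, was covered in every library. It had a median of 30.8 FPKM in homozygous cells, 24.5 in heterozygous cells and 9.67 in wild-type libraries, from 7 to 98 reads. Its ratio to exon 4 was 0.566 ± 0.120 in homozygous cells, 0.534 ± 0.0939 in heterozygous cells and 0.551 ± 0.193 in wild-type libraries (SD, n = 6 libraries from 2 mice each). The mean ratios of the genotypes thus differed by less than their SD. The log2 ratio differed by −9.1e-05 between the mice with a Pro allele and those without (exact permutation test over 6 mice, two-sided p = 1). So short an exon is counted with little precision, and the ratio is not a share of transcripts.

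**Figure D3:**
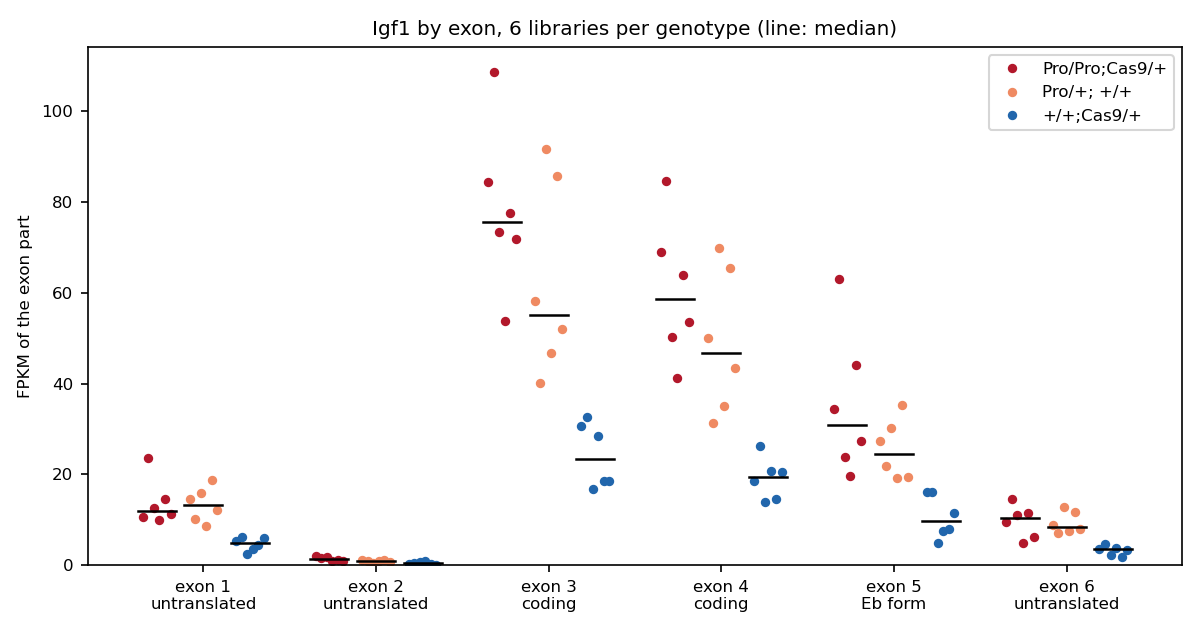
FPKM of Igf1 exon parts (vertical axis, from 0) in the 6 libraries of each genotype (points), with the median as a line. The coding bases of exons 1 and 2 are not plotted. Of the parts plotted exons 3 and 4 have the highest medians, the untranslated bases of exon 2 reach at most 2.09 FPKM, and in exon 4 the libraries of both Pro genotypes (31.4 FPKM and more) lie above those of +/+;Cas9/+ (at most 26.3 FPKM).

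The receptors varied least relative to their means. Igf1r lay between 13.2 and 15.3 FPKM in homozygous cells, 12.6 and 16.7 FPKM in heterozygous cells and 12.001 and 14.8 FPKM in wild-type libraries. In homozygous cells it was at 13.2 and 14.4 FPKM with gLmna-1 and 13.9 and 13.5 FPKM with gLmna-2, against 15.1 and 15.3 FPKM with gMock, lower in all 4 guide libraries, a log2 change of −0.13 (SE 0.077, limma adjusted p = 0.74). No member passed in homozygous cells, in which 0.0794% of all genes passed, nor in heterozygous cells, in which 0% did with limma or with voom on recovered reads. At an unadjusted p under 0.05 there were 0 of 10 members in homozygous cells beside 8.37% of all genes, and in heterozygous cells 2 of 10, Igfbp3 and Igf2r, beside 3.15%.

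Igf2r was lower with the guides in 4 of 4 libraries of homozygous cells and higher in 4 of 4 of each other genotype. Among all genes, 8.37% were lower in 4 of 4 in homozygous cells, 9.02% higher in heterozygous cells and 12.6% higher in wild-type cells. The share of genes with these directions together is not given here. Both guide libraries of a mouse share a gMock library, so the directions are not independent. Igf2r was at 25.6 and 26.6 FPKM with gLmna-1 and 31.1 and 23.1 FPKM with gLmna-2 in homozygous cells, against 32.0 and 27.1 FPKM with gMock. In heterozygous cells it was at 24.6 and 35.1 FPKM with gLmna-1 and 26.7 and 39.9 FPKM with gLmna-2, against 23.8 and 29.3 FPKM with gMock. In wild-type cells it was at 24.2 and 30.6 FPKM with gLmna-1 and 24.2 and 27.4 FPKM with gLmna-2, against 21.1 and 26.2 FPKM with gMock. The guide and gMock libraries overlapped in all 3 genotypes when mice were not matched. The log2 changes were −0.15 in homozygous cells (SE 0.096, limma adjusted p = 0.77), 0.22 in heterozygous cells (SE 0.096, limma adjusted p = 0.996) and 0.16 in wild-type cells (SE 0.096, limma adjusted p = 0.73). The difference between homozygous cells and wild-type cells, −0.32 (SE 0.14), did not pass (limma adjusted p = 1.00, unadjusted p = 0.044).

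Igfbp5 was the one member higher with a guide than with gMock of the same mouse in 12 of 12 guide libraries, as were 0.516% of all genes, and no member was lower in 12 of 12. In homozygous cells it was at 189 and 291 FPKM with gLmna-1 and 239 and 80.05 FPKM with gLmna-2, against 158 and 79.0 FPKM with gMock. In heterozygous cells it was at 284 and 375.4 FPKM with gLmna-1 and 293 and 395 FPKM with gLmna-2, against 199 and 259 FPKM with gMock. In wild-type cells it was at 426 and 763 FPKM with gLmna-1 and 262 and 498 FPKM with gLmna-2, against 204 and 306 FPKM with gMock. The heterozygous cells, which carry no Cas9 and also differ in Lmna, had the same direction, and the part of Cas9 was not tested. Both guide libraries of a mouse are set against the same gMock library, so these 12 directions are not independent. Macrophage and fibroblast markers were also mostly higher with the guides. Of 12 macrophage markers 12, 12 and 11 were higher in homozygous cells, heterozygous cells and wild-type cells, with median log2 changes of 0.34, 0.57 and 0.70. Of 10 fibroblast markers 8, 9 and 9 were higher in the same order, with medians of 0.18, 0.27 and 0.24. None of these markers passed, and their part in the Igfbp5 differences was not tested.

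None of these Igfbp5 differences passed. The log2 changes were 0.69 in homozygous cells (SE 0.33, limma adjusted p = 0.65), 0.55 in heterozygous cells (SE 0.33, limma adjusted p = 0.996) and 0.86 in wild-type cells (SE 0.33, limma adjusted p = 0.61). Fitted on the 6 libraries of wild-type cells alone, the same 0.86 passed (limma adjusted p = 0.0497). The estimate in homozygous cells rested on single libraries. It became 1.16 and passed when gLmna-1 of replicate 1 was left out (limma adjusted p = 0.011), was 1.03 without gLmna-2 of replicate 2 (limma adjusted p = 0.44), 0.43 without gMock of replicate 2 (limma adjusted p = 0.94) and 0.34 without gLmna-2 of replicate 1 (limma adjusted p = 0.84), and was 0.21 without gLmna-1 of replicate 2 (limma adjusted p = 0.44). The genes most like Igfbp5 were Hgf (r = 0.91), which encodes hepatocyte growth factor, Pdgfd (r = 0.89), a platelet-derived growth factor, and Clec14a (r = 0.89).

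Between the guides in homozygous cells, Igf1, Igfbp5 and Igfbp6 differed more in replicate 2. There Igf1 was at 7.68 FPKM with gLmna-2 and 20.1 with gLmna-1, beside 9.71 with gMock. Igfbp5 was at 80.05 FPKM with gLmna-2 and 291 with gLmna-1, beside 79.0 with gMock. That gLmna-1 library had the lowest Igfbp2 of all, 12.6 FPKM, and the lowest Igfbp6, 17.1 FPKM. In replicate 1 the 2 guide libraries were closer. Igf1 was at 14.1 FPKM with gLmna-2 and 13.8 with gLmna-1, and Igfbp6 at 34.5 and 34.96 FPKM in the same order. Igfbp5 was there at 239 FPKM with gLmna-2 and 189 with gLmna-1. The 2 mice thus differed in direction for Igf1, Igfbp5 and Igfbp6. No member passed in gLmna-2 against gLmna-1, in which 9.95% of all genes passed, and 3 of 10 members, Igf1, Igf2 and Igfbp3, had an unadjusted p under 0.05 beside 25.2% of all genes. Without gLmna-1 of replicate 1, 4 members passed, Igfbp6 at 1.46 (limma adjusted p = 0.0021), Igfbp5 at −1.70 (limma adjusted p = 0.00059), Igf1 at −1.23 (limma adjusted p = 0.0012) and Igf2 at 0.48 (limma adjusted p = 0.048). That fit sets gLmna-2 of both mice against 1 gLmna-1 library, which is assumed to vary like the others. No gene passed between the guides in heterozygous cells, where 1 of 10 members, Igf1r, had an unadjusted p under 0.05 beside 2.11% of all genes. None passed in wild-type cells either, where the 1 member was Igf2, beside 8.01%.

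Igfbp6 was lower in the Pro genotypes. It was at 34.96 and 17.1 FPKM with gLmna-1, 34.5 and 44.8 with gLmna-2 and 20.7 and 38.1 with gMock in homozygous cells. In heterozygous cells it was at 34.5 and 46.4 FPKM with gLmna-1, 37.6 and 47.6 with gLmna-2 and 33.1 and 44.2 with gMock. In wild-type cells it was at 58.4 and 63.7 FPKM with gLmna-1, 73.4 and 53.98 with gLmna-2 and 80.6 and 57.8 with gMock. The highest of the 12 Pro libraries, 47.6 FPKM, was below the lowest wild-type one, 53.98 FPKM. Under gMock the log2 changes were −1.25 for homozygous cells (SE 0.32, limma adjusted p = 0.24) and −0.82 for heterozygous cells (SE 0.32, limma adjusted p = 0.39), neither of which passed. With the libraries of a mouse averaged they were −1.07 (limma adjusted p = 0.066) and −0.66 (limma adjusted p = 0.098). Its pattern ran opposite to that of Igf1, with a Pearson r of −0.90 over the 18 libraries of 6 mice, given as a description. Fgfr1 (r = 0.93), a fibroblast growth factor receptor, Adh7 (r = 0.92) and Nnmt (r = 0.90) were most like it.

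**Figure D4:**
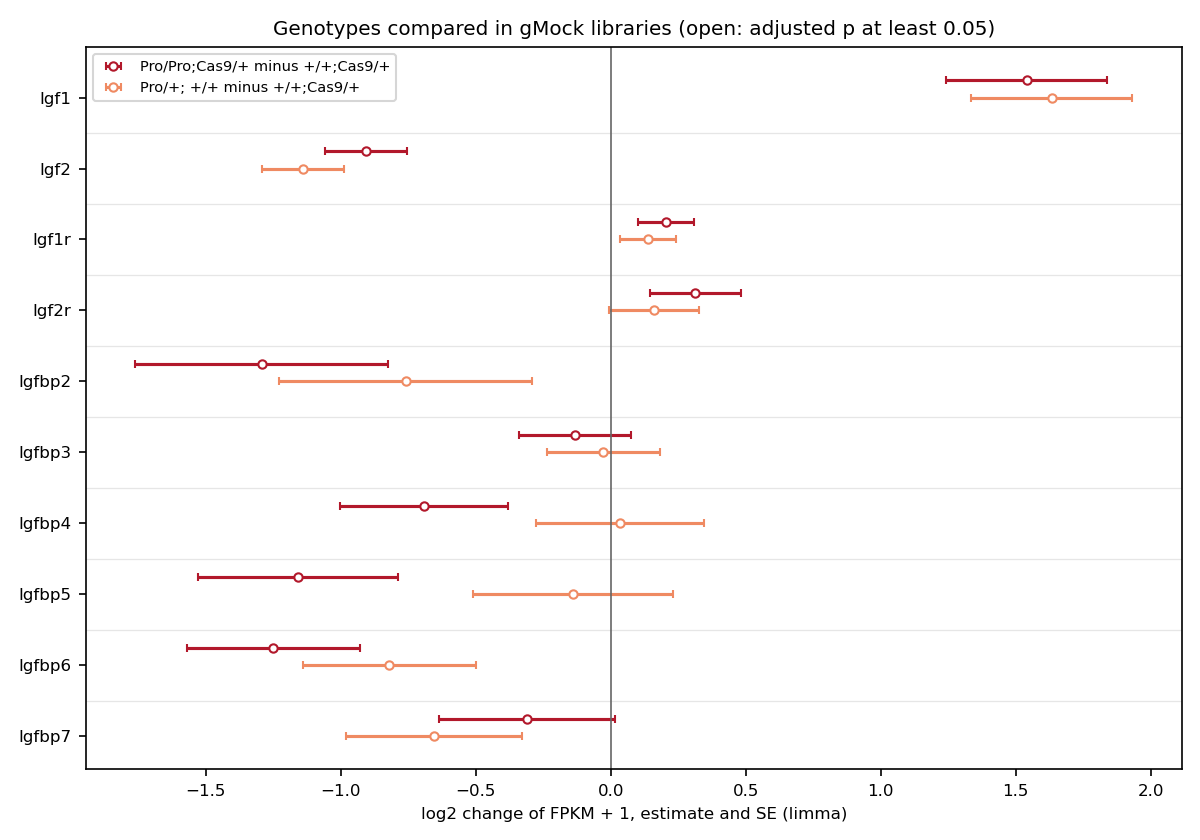
Log2 change of FPKM + 1 in gMock libraries of each Pro genotype against +/+;Cas9/+ (horizontal axis, estimate and SE from limma) for the 10 genes (vertical axis). Igf1 stands at 1.54 and 1.63 and Igf2 at −0.91 and −1.14, and all points are open because none had an adjusted p below 0.05.

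Igfbp2 differed between the 2 homozygous mice. In replicate 1 it was at 74.7 FPKM with gLmna-1, 73.5 with gLmna-2 and 46.9 with gMock, and in replicate 2 at 12.6, 27.8 and 16.1 FPKM in the same order. It stayed between 34.5 and 47.2 FPKM in heterozygous cells and between 64.1 and 164 FPKM in wild-type libraries. The homozygous and wild-type libraries therefore overlapped. Under gMock the log2 changes were −1.29 for homozygous cells (SE 0.47, limma adjusted p = 0.41) and −0.76 for heterozygous cells (SE 0.47, limma adjusted p = 0.54). Igfbp2 was most like Tmco1 (r = 0.93), Rgl1 (r = 0.89) and Cdkn2a (r = 0.89), the last a cell cycle inhibitor locus used as a marker of senescent cells.

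Igfbp3, Igfbp4 and Igfbp7 did not pass in any comparison. Igfbp3 had its highest value, 188 FPKM, with gLmna-2 in replicate 2 of heterozygous cells and its lowest, 38.3 FPKM, with gLmna-1 in replicate 1 of wild-type cells. In heterozygous cells it was at 83.5 and 112 FPKM with gLmna-1 and 99.0 and 188 FPKM with gLmna-2, against 63.2 and 80.3 FPKM with gMock, a log2 change of 0.68 (SE 0.26, limma adjusted p = 0.996). Igfbp4 was divided by mouse in homozygous cells, with 690 to 807 FPKM in replicate 1 and 386 to 437 FPKM in replicate 2. It was higher with the guides in 4 of 4 libraries of homozygous cells (log2 change 0.15, SE 0.10, limma adjusted p = 0.79) and lower in 4 of 4 of wild-type cells (log2 change −0.15, SE 0.10, limma adjusted p = 0.77). Among all genes, 8.46% were higher in 4 of 4 and 17.7% lower in 4 of 4 in those cells. The difference of 0.30 (SE 0.14) did not pass (limma adjusted p = 1.00). Igfbp7 had its highest group mean in wild-type cells with gLmna-2, at 468 and 531 FPKM, and its lowest value, 221 FPKM, with gLmna-2 in replicate 2 of heterozygous cells.

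The make-up of the 6 binding protein transcripts differed between mice as well. Igfbp4 made a median of 43.0% of their summed FPKM in homozygous cells, 54.02% in heterozygous cells and 40.4% in wild-type libraries. Igfbp7 ranged from 20.7% to 47.2% in homozygous cells, 11.2% to 22.3% in heterozygous cells and 14.0% to 30.6% in wild-type libraries. Igfbp5 ranged from 6.91% to 25.7%, 13.3% to 22.0% and 12.4% to 35.7% in the same order. The summed FPKM was 1087 to 1543 in homozygous cells, 1492 to 1973 in heterozygous cells and 1614 to 2191 in wild-type libraries. All 6 homozygous libraries were thus below every wild-type library, with a highest sum of 1543 against a lowest of 1614. The sum also divided the homozygous libraries by mouse, at 1087 to 1158 in the lower mouse and 1254 to 1543 in the higher. Libraries of the same mouse are not independent. How often sums over other genes lack overlap in this way is not given here. The shares and the sum are of transcript per length, not of protein, and no test was made on them.

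**Figure D5:**
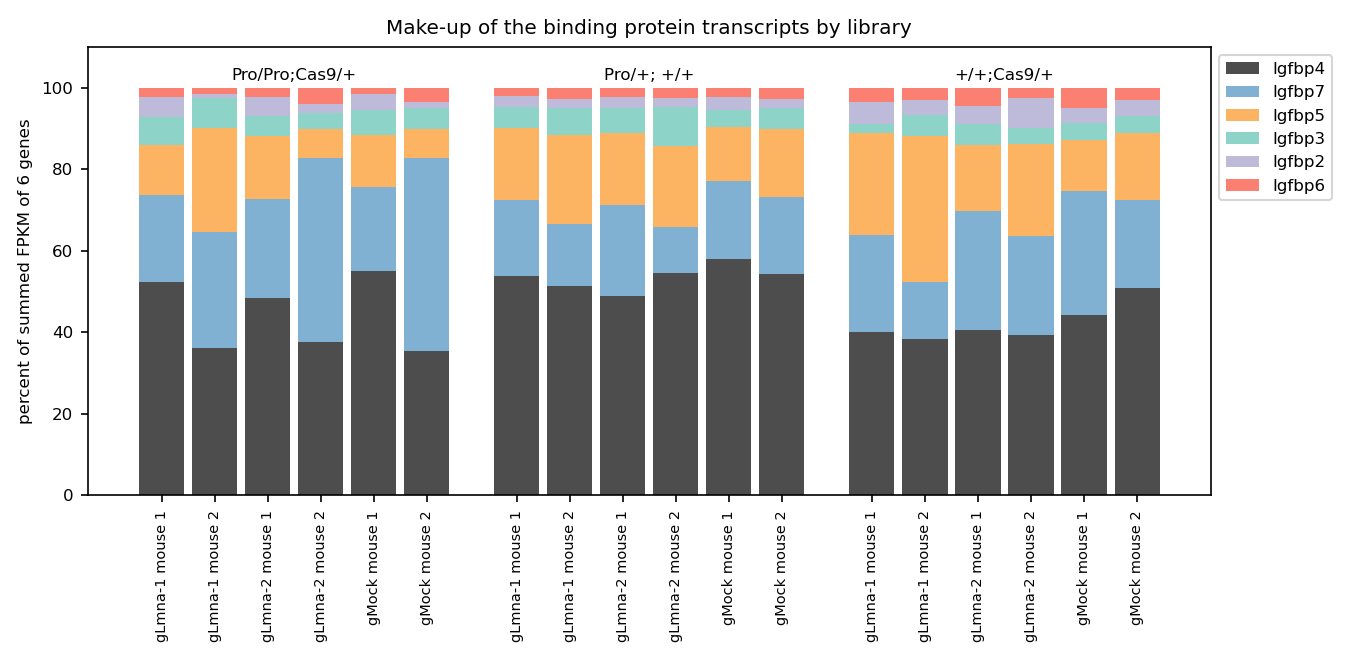
Share of each of 6 binding protein genes in their summed FPKM (vertical axis, percent) in the 18 libraries (horizontal axis). Igfbp4 takes 35.5% to 58.1% of each bar, and in replicate 2 of Pro/Pro;Cas9/+ the share of Igfbp7 reaches 47.2%.

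Around the members, few genes of the IGF system passed, and those that did passed in gLmna-2 against gLmna-1 of homozygous cells. These calls depend on the libraries fitted: 1253 genes passed in that comparison with all 18 libraries and the mouse as block, 0 with the 6 libraries of homozygous cells alone and 59 without the block. Every call named in this paragraph and the next is therefore lost with those 6 libraries. Leaving out 1 library gave 2631 genes without gLmna-1 of replicate 1, 1180 without gLmna-1 of replicate 2, 140 without gLmna-2 of replicate 1 and 238 without gLmna-2 of replicate 2. Falls and rises in this comparison are of gLmna-2 relative to gLmna-1, not to gMock. Of 13 tested proteases of binding proteins and their regulators, 2 fell there and none rose. Adamts1, a secreted metalloprotease, was at 67.1 and 48.3 FPKM with gLmna-2 and 133 and 75.0 FPKM with gLmna-1, beside 72.8 and 47.3 with gMock. Its log2 change was −0.80 (SE 0.20, limma adjusted p = 0.040). Htra3, a secreted serine protease, changed by −0.65 (SE 0.17, limma adjusted p = 0.042). It was at 3.38 and 4.12 FPKM with gLmna-2 and 6.21 and 6.64 with gLmna-1, beside 5.25 and 5.22 with gMock. Pappa, the protease that cuts IGFBP4, was at 4.08 to 10.5 FPKM in all libraries and its log2 change was −0.30 (SE 0.15, limma adjusted p = 0.25), which did not pass. Of 9 other tested IGF system genes, 2 rose there, Ghr, the growth hormone receptor gene, by 0.73 (SE 0.19, limma adjusted p = 0.044), and Crim1 by 0.50 (SE 0.12, limma adjusted p = 0.029). Over 11 alternatives Adamts1, Htra3 and Ghr each passed in 4 and Crim1 in 5, with adjusted p of up to 0.36, 0.26, 0.29 and 0.29. Adamts1 and Htra3 were lost whichever guide library was left out, and Ghr and Crim1 without any but gLmna-1 of replicate 1. Without gLmna-1 of replicate 2 the changes of Ghr and Crim1 were 0.31 (limma adjusted p = 0.18) and 0.27 (limma adjusted p = 0.10). None of the 4 passed without the block.

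Of 31 genes of signalling downstream of the receptor, 2 rose in that comparison and none fell. Shc1, an adaptor that binds the active receptor, rose and was 0.44 higher with gLmna-2 on the log2 scale (SE 0.090, limma adjusted p = 0.019). It passed in 6 of 11 alternatives, and did not without the block (limma adjusted p = 0.060) or without gLmna-2 of replicate 1, gLmna-1 of replicate 2 or gLmna-2 of replicate 2 (limma adjusted p = 0.074, 0.052 and 0.14). Of 6 tested imprinted growth genes 1 fell, Mest, which is expressed from the paternal copy as Igf2 is. Mest was at 28.3 and 11.2 FPKM with gLmna-2 and 187 and 182 FPKM with gLmna-1, beside 91.4 and 20.7 FPKM with gMock. Its log2 change between the guides was −3.29 (SE 0.40, limma adjusted p = 0.0041). It passed in 10 of 11 alternatives, all but the fit of homozygous libraries alone (limma adjusted p = 0.19). The medians of the log2 changes were −0.24 for the proteases, 0.07 for other IGF system genes, 0.09 for signalling genes and 0.01 for imprinted genes, beside 0.06 over all genes tested. Beside these counts, 6.92% of all genes rose and 3.02% fell in this comparison. Marker genes of several cell types changed in it as well. Both tested skeletal muscle markers, Des and Acta1, rose (median log2 change 1.28). Of 10 fibroblast markers Thy1 rose and Col1a1 and Col3a1 fell. Of 5 tested cartilage and bone markers Col2a1 and Ibsp fell, while 2 others had log2 changes above 0 that did not pass. Of 2 tested adipocyte markers Fabp4 fell. All 3 tested Schwann and pigment markers had an unadjusted p under 0.05 and were higher (median log2 change 0.60), and 11 of 12 macrophage markers were higher (median log2 change 0.54), but none of either list passed. The part of these markers in the changes was not tested.

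In the other 9 comparisons no gene of these 4 lists passed. H19, the non-coding neighbour of Igf2 that is expressed from the other parental copy, had the smallest p of its list in wild-type cells with the guides. It was at 0.483 and 0.558 FPKM with gLmna-1 and 0.866 and 0.634 FPKM with gLmna-2, against 0.939 and 2.53 FPKM with gMock, a log2 change of −0.68 (SE 0.19, limma adjusted p = 0.35). Under gMock the gene with the smallest p among imprinted genes in homozygous cells against wild-type cells was Plagl1, a zinc finger gene, with a log2 change of 1.498 (SE 0.34, limma adjusted p = 0.19), and among the proteases Stc1, which encodes an inhibitor of the Pappa protease, with a log2 change of −1.09 (SE 0.18, limma adjusted p = 0.10). Neither passed.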

How the data were processed

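RNA was measured in 18 libraries of 6 mice. Per the submitters' processing notes FastQC 0.11.2, STAR 2.4.0k and HOMER were used, with mm10. Per the file headers, the authors used HOMER to give FPKM for each transcript part, and the deposited table also holds the part lengths. Strand is not stated. Of 24 library columns, 6 match no sample and were not used. Parts were joined by length into transcripts, and the transcript with the highest mean FPKM stood for each symbol. Reads were recovered from the steps of the values (100% whole within 0.05 reads), and voom on these reads called 107 genes for the guides in wild-type cells and 7 in homozygous cells. Depth was 22424409 to 42622051 reads. The 12599 genes that reached 1 FPKM in 2 or more libraries were tested on log2(FPKM + 1) with limma 3.58.1 in R 4.3.3 (trended), adjusted by Benjamini-Hochberg over all of them at 0.05. Guide fits used all 18 libraries with the mouse as block (6 residual degrees of freedom), genotype fits the 6 gMock libraries (3). Tables were made with Python 3.11.15. The mouse names in the labels pair the libraries. Within mice, deviations from group means correlated at −0.02 to 0.78 over genes. The lowest value, −0.02, was that of gLmna-2 with gLmna-1 in homozygous cells, the comparison in which 1253 genes passed. The p-values rest on 2 mice per genotype. Members and lists were chosen with earlier results of these data known. All members are named; of each list, genes that passed (up to 4 per comparison), otherwise at most the one with the smallest p. Pappa, Airn, Igf2os and Igfbp1 were named after their values were seen. One signalling gene that passed is not reported here. Alternatives were voom, another pseudocount, no filter, other sample sets, the block and leaving out each library. The alternatives were read for the list genes that passed after seeing the data. The fits were also run on simulated data with planted changes and independent noise. Such data cannot show how far the calls depend on the libraries fitted.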

Additional observations from a re-analysis of the deposited data

Results flagged for a closer look

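Igf2r was lower with the guides in 4 of 4 libraries of homozygous cells and higher in 4 of 4 of heterozygous cells, so every library of one genotype moved against every library of the other. The mean log2 differences from gMock of the same mouse differed by −0.374 between the genotypes. This difference between these 2 genotypes was not tested. As a single direction, 8.37% of all genes were lower in 4 of 4 in homozygous cells and 9.02% higher in 4 of 4 in heterozygous cells. The share of genes with both directions at once is not given here. Both guide libraries of a mouse share a gMock library, so these directions are not independent. Some differences were small, such as −0.026 in homozygous cells and 0.047 in heterozygous cells.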

How the results depend on the processing

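Of 1240 recomputed changes of single members, 1231 kept their side of the threshold, 7 passed newly and 2 no longer passed. Where either fit passed, 0 turned round. Changes of direction where neither fit passed were not counted. The count of members called was 0 as reported in every comparison but the guides in wild-type cells, where it was 1. It was within 1.5 times of the reported count in 118 of 124 recomputations, mostly 0 against 0, which says little about stability. It became 2 for the guides in wild-type cells when only that genotype was fitted (Igfbp5 joined Igf2), and 1 for heterozygous cells against wild-type cells with voom. Leaving out single libraries it was 0 to 1 for the guides in homozygous cells, 0 to 1 in wild-type cells, and 0 to 4 for gLmna-2 against gLmna-1 in homozygous cells; the cause was not tested. Without the replicate block the counts of members called were 0, 0 and 1 for the guides in homozygous cells, heterozygous cells and wild-type cells, so the pairing changed no call of a member. The genotype fits with a replicate block for whether the library title carries an S index called 0 members. That index pairs no animals. Without the block 59 genes passed between the guides in homozygous cells, against 1253. Counts over all genes moved more: 0 to 10 (10 as reported) for the guides in homozygous cells and 67 to 107 (107) in wild-type cells, 0 to 1332 (1253) between the guides in homozygous cells, 0 to 6 (6) for the difference of the guide effect, 0 to 52 (50) for homozygous cells and 0 to 183 (52) for heterozygous cells against wild-type cells, 0 to 3 (0) between the guides in heterozygous cells and 0 to 7 (0) for homozygous cells against heterozygous cells. Leaving out single libraries, the counts were 1 to 152 for the guides in homozygous cells, 0 to 84 in wild-type cells, 140 to 2631 between the guides in homozygous cells, 0 to 22 for the difference of the guide effect, 0 to 2 for homozygous cells and 0 to 3 for heterozygous cells against wild-type cells, and 0 to 3 for homozygous cells against heterozygous cells. In wild-type cells the count was 0 without either gMock library. The highest counts in homozygous cells, 152 and 2631, came without gLmna-1 of replicate 1. The Igf2 call in wild-type cells was lost without either gMock library, and it rests on 53 to 355 reads per library over all 18.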
